A study of Mus musculus with 3 samples.

Results

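The 40 genes described here act in DNA replication and S phase, and were chosen by symbol from the 31053 genes of the count tables, where all 40 had an entry. Before S phase the MCM proteins are loaded at replication origins with the help of Cdc6, a step called licensing that geminin (Gmnn) blocks once replication has begun. Cdc45 and the GINS complex then turn the MCM ring into the active helicase, DNA polymerases copy the strands around the sliding clamp Pcna, ribonucleotide reductase and thymidylate synthase supply deoxynucleotides, and histone chaperones rebuild chromatin behind the fork. Most of these genes are transcribed from late G1 under E2F factors, so their RNA is widely used to mark cells that enter or pass through S phase.

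The data are single-cell counts from 3 pancreatic tumours grown in mice, each with a library of its own, made by a droplet method in which each captured molecule is counted once at its 3′ end as a unique molecular identifier (UMI). All 3 tumours form 1 group and no untreated control or other genotype is among them. The donor genotype was Msi2-Myc; R26-LSL-tdTomato, in which tamoxifen activates a CreER of the Msi2 line and so turns on MYC (MycT58A in the series title) and the red reporter. Red epithelial cells were taken 5 weeks after tamoxifen and grown in the pancreas of immunodeficient NSG mice, and EpCAM-positive cells were sorted from the end-stage tumours. The labels do not say whether donor cells were pooled or which tumour had which of the subtypes that the title names, so no tumours were contrasted with each other.

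After filtering, 1431, 253 and 2804 cells remained in tumours 1, 2 and 3, with a median of 1621, 1333 and 1605.5 UMIs. All kept barcodes also had 10 or more UMIs in another library, so a barcode was kept only where 60% or more of its UMIs lay. This removed 7.86%, 50.5% and 0.989% of the barcodes that had passed the other filters, most of all in library 2. Cells were placed by marker genes that are no members of the set. The acinar gate (Ctrb1, Clps) held 316, 36 and 1686 cells, the ductal gate (Tff1, Lgals4) 442, 106 and 190, and the gate of Msln, Tm4sf1 and F3, called the Msln gate here, 52, 7 and 93. The squamous gate (Krt5, Krt14) held 0, 3 and 66 cells, and 393 cells that passed more than 1 gate and 1098 that passed none were left out of the tests. Acinar genes not used by the gate summed to 8161 to 10897 UMIs per 1000000 (CPM) in the acinar gate and to 600.1 to 842 CPM in the ductal gate, and ductal genes not used by the gate to 6498 to 10628 CPM in the ductal gate and to 1644 to 2406 CPM in the acinar gate. Lists of fibroblast, endothelial, myeloid, lymphoid and erythroid genes reached at most 55.4, 35.6, 40.8, 1.48 and 4.01 CPM in any gate of 50 or more cells. RNA of the ribosomal RNA locus set the acinar gate of tumour 3 apart: it took a median of 27.0% of UMIs there, against 1.68% in the acinar gate of tumour 1 and 0.988% in the ductal gate of tumour 3. The median mitochondrial share was 2.05%, 1.68% and 0.468% in the acinar gate and 2.77%, 3.35% and 3.93% in the ductal gate of tumours 1, 2 and 3.

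Short words typical of E2F sites are a sequence feature that many of the members share. RefSeq start sites (GRCm38.p6) were matched for 30 of the 40 members, and a window from 250 bases before to 50 bases after the start was searched on both strands, at every listed start of a gene, for TTTCCCGC, TTTCGCGC, TTTGCCGC and TTTGGCGC. A word was found in 12 of the 30 members (40%), against 704 of 27025 genes (2.61%). The members with a word were Mcm5, Mcm6, Cdc6, Pola1, Pold3, Casp8ap2, Uhrf1, Hells, Cdca7, Clspn, Ubr7 and Dtl. Other replication factors had a word in 34.3% of 35 genes and genes of G2 and mitosis in 6.52% of 46. The stretches below come from members that were lower in the ductal or the Msln gate, have a word upstream of the start and overlap no annotated exon. They run 5′ to 3′ on the strand of the gene, with the matched words in capitals. The Mcm5 stretch (chr8:75109330-75109397, plus strand) holds 2 overlapping words that face opposite ways, those of Mcm6 (chr1:128359715-128359782, minus strand) and Pola1 (chrX:93632256-93632323, minus strand) hold 1 each (a further overlapping pair lies upstream of the Mcm6 stretch), and that of Dtl (chr1:191575545-191575582, minus strand) ends at the base before the start.
Mcm5: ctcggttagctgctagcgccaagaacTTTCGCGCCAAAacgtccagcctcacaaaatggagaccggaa
Mcm6: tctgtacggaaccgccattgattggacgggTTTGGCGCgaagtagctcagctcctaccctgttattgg
Pola1: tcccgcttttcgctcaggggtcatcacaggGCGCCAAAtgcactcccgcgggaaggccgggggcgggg
Dtl: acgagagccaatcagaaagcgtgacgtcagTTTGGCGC

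CCAAT, the box bound by NF-Y, was found on either strand in 70% of the 30 members and 41.1% of all genes. TTTGAA, the CHR element known from genes of G2 and mitosis, was found in 20% of the members and 20.2% of all genes, but in 71.7% of the G2 and mitosis genes. The E-box CACGTG, to which MYC and its partners can bind, was found in 2 of 30 members (6.67%), Fen1 and Tyms, and in 8.09% of all genes. E2F words facing opposite ways can share letters, and each gene was counted once per motif. A match is a match of letters in this window and no measure of binding.

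**Figure D1:**
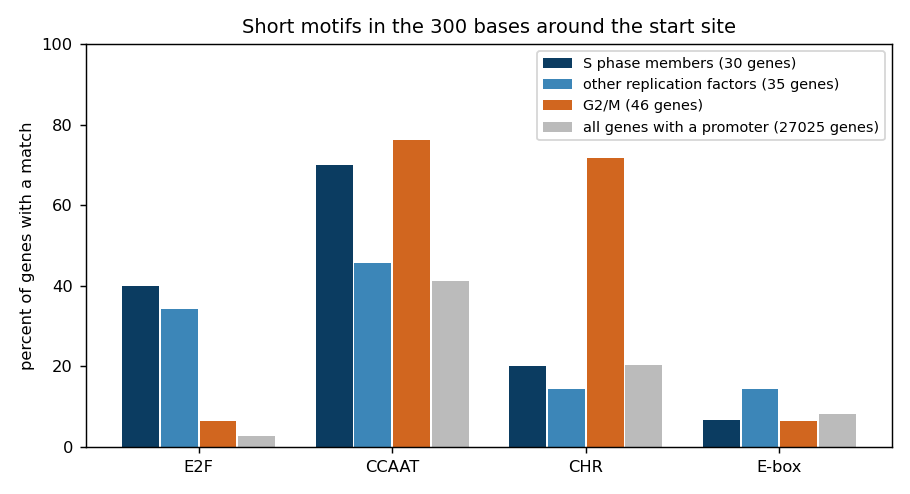
Percent of genes (y axis) with a match to each of 4 short motifs within the 300-base window around the start site, for the 30 matched members, 35 other replication factors, 46 genes of G2 and mitosis, and all 27025 genes with a promoter entry. The members stand at 40% for E2F words against 2.61% of all genes, and at 20% for CHR against 71.7% of the G2 and mitosis genes.

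Over all kept cells, the 40 genes summed to 1619.9 CPM in tumour 1, 2087 CPM in tumour 2 and 1750.4 CPM in tumour 3. The tumours averaged 1819 CPM with an SD of 241 CPM (n = 3). The order is not firm: without the 5% of cells with the most UMIs the levels were 1504, 1564 and 1597 CPM, and with at most 10% mitochondrial UMIs 1667, 1742 and 1795 CPM. The histone chaperone Nasp, which carries H3 and H4, led the set at 191, 238 and 184 CPM, and the clamp Pcna followed at 111, 161 and 117 CPM. The chromatin remodeller Hells, both ribonucleotide reductase subunits Rrm1 and Rrm2 and the deubiquitinase Usp1 came next, with means of 105.8, 87.9, 94.1 and 87.7 CPM. These 6 genes gave 39.6%, 40.7% and 36.4% of the set's UMIs in tumours 1, 2 and 3. At the other end stood Dscc1, a clamp loader subunit, with 10, 6 and 49 UMIs, and the helicase activator Cdc45 at 10.5, 5.49 and 9.62 CPM. Since each molecule is counted at its 3′ end, these levels are not scaled by gene length. The spread between tumours was narrow for Dtl (26.3 ± 0.87 CPM, SD, n = 3) and wide for Exo1 (19.4 ± 10.2 CPM) and Prim1 (34.9 ± 15.8 CPM). In tumour 2 these values rest on 14, 17 and 29 UMIs, so the spreads include much counting error.

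**Figure D2:**
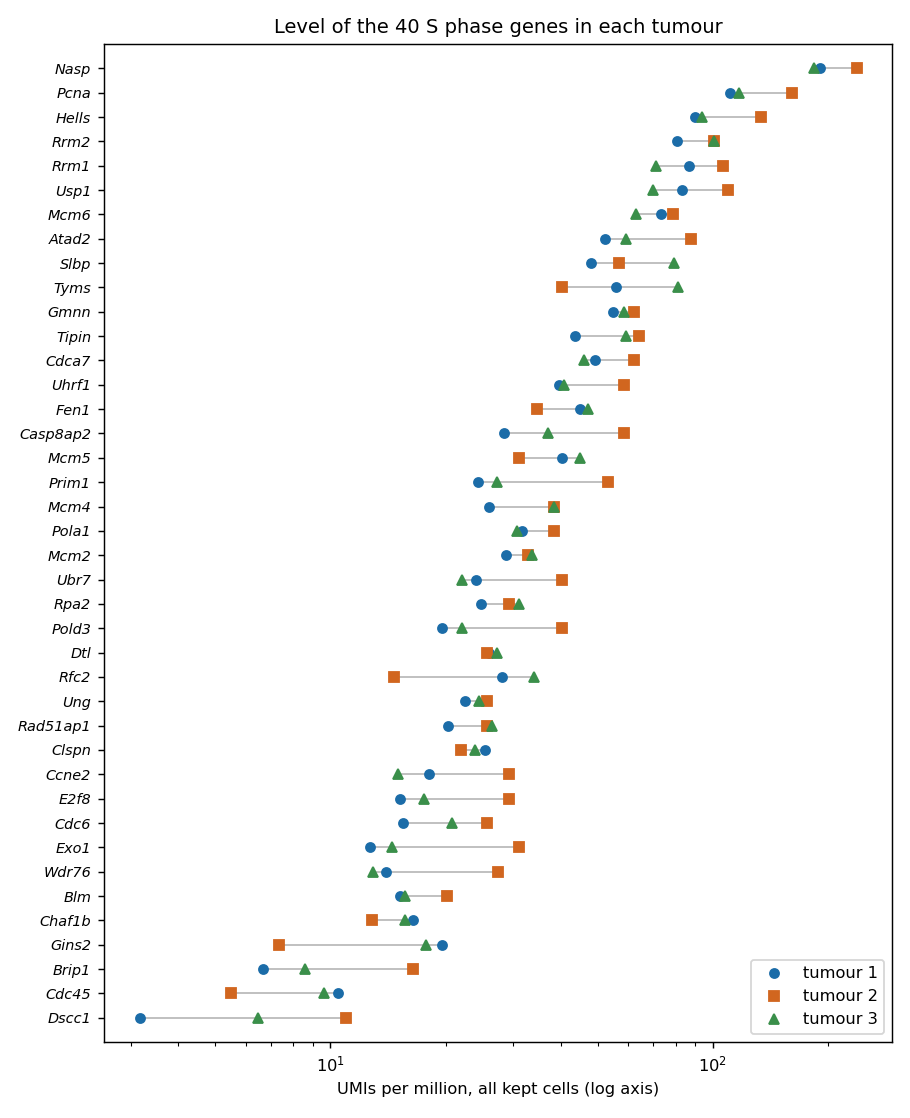
Level of each of the 40 genes in all kept cells of each tumour, in CPM on a log axis, with 1 point per tumour and a line from the lowest to the highest. Nasp and Pcna lead in every tumour. The tumours lie far apart for genes such as Prim1, at 24.4, 53.1 and 27.3 CPM, and Gins2, at 19.6, 7.32 and 17.8 CPM. The values of these 2 genes in tumour 2 rest on 29 and 4 UMIs.

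Barcodes with 10 to 100 UMIs, taken as free RNA, held the 40 genes at 1069, 877 and 1124 CPM in tumours 1, 2 and 3. The set stood at 2461, 2938 and 1936 CPM in the acinar gate, which is 2.30, 3.35 and 1.72 times the free RNA of the same tumour. In the ductal gate it stood at 1199, 1326 and 1272 CPM, or 1.12, 1.51 and 1.13 times free RNA. The Msln gate had 899 CPM in tumour 1 (exact Poisson 95% interval 758 to 1059), 0.841 times free RNA, and 1224 CPM in tumour 3 (1138 to 1315), 1.09 times. The acinar gate lay above free RNA in every tumour. The Msln gate of tumour 1 lay below it, so the set was not raised over free RNA there. Both values are shares of UMIs, so how much of the level in a gate came from free RNA cannot be told from them. Of the 40 genes, 37, 38 and 39 were above free RNA in the acinar gate of tumours 1, 2 and 3. In the ductal gate 24, 26 and 28 were above it, and in the Msln gate of tumours 1 and 3 16 and 23. The share of all genes above free RNA was not counted, so how unusual these counts are is not known. Cells that passed no gate had 1649, 2646 and 2038 CPM. Intervals here and below cover counting error only.

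**Figure D3:**
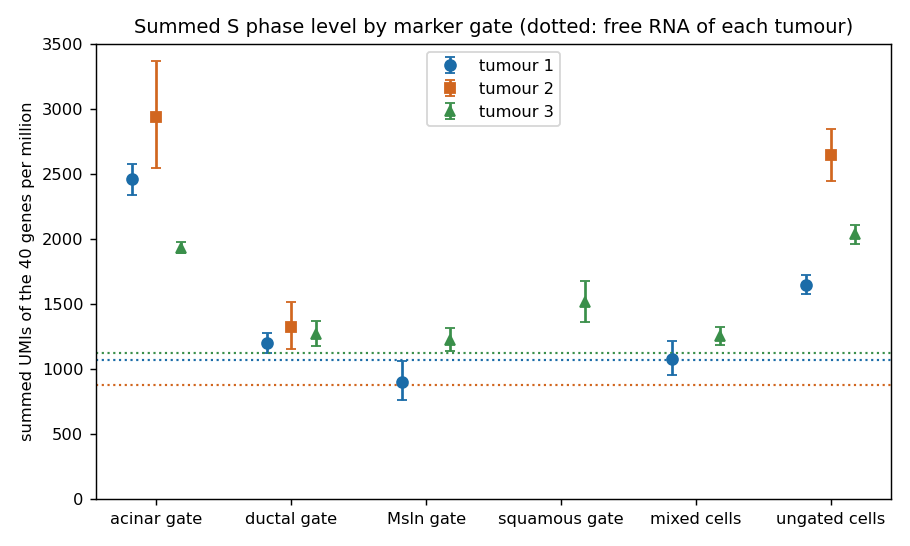
Summed level of the 40 genes in CPM (y axis) in each marker gate and in mixed and ungated cells with 20 or more cells, 1 point per tumour with its exact Poisson 95% interval, and a dotted line for the free RNA of each tumour. The acinar gate lies between 1936 and 2938, and the ductal gate between 1199 and 1326.

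To set cells at equal depth, each was thinned to 1000 UMIs. Acinar gate cells then had a mean of 2.35, 2.56 and 1.73 UMIs of the 40 genes in tumours 1, 2 and 3, ductal gate cells 1.18, 1.39 and 1.03, and Msln gate cells 0.788 and 0.892 in tumours 1 and 3. Cells with 1 or more such UMI made up 86.1%, 86.1% and 79.1% of the acinar gate and 58.8%, 65.1% and 53.7% of the ductal gate, and before thinning 93.7%, 91.7% and 89.7% against 73.8%, 73.6% and 68.9%. Cells with 3 or more made up 40.5% (exact binomial 95% interval 35.0 to 46.1), 50% (32.9 to 67.1) and 25.3% (23.3 to 27.5) of the acinar gate, against 14.3% (11.1 to 17.9), 17.9% (11.2 to 26.6) and 11.1% (6.97 to 16.4) of the ductal gate. The acinar gate was above the ductal gate in each tumour by every one of these measures. With 3 tumours an exact permutation of signs cannot give a p under 0.25, so none was computed. The acinar gate of tumour 3, rich in RNA of the ribosomal locus, was the lowest of the 3 acinar gates. Among cells with at most 5% of such UMIs, means per 1000 UMIs were 2.61, 2.65 and 2.18 in the acinar gate and 1.14, 1.15 and 1.01 in the ductal gate.

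**Figure D4:**
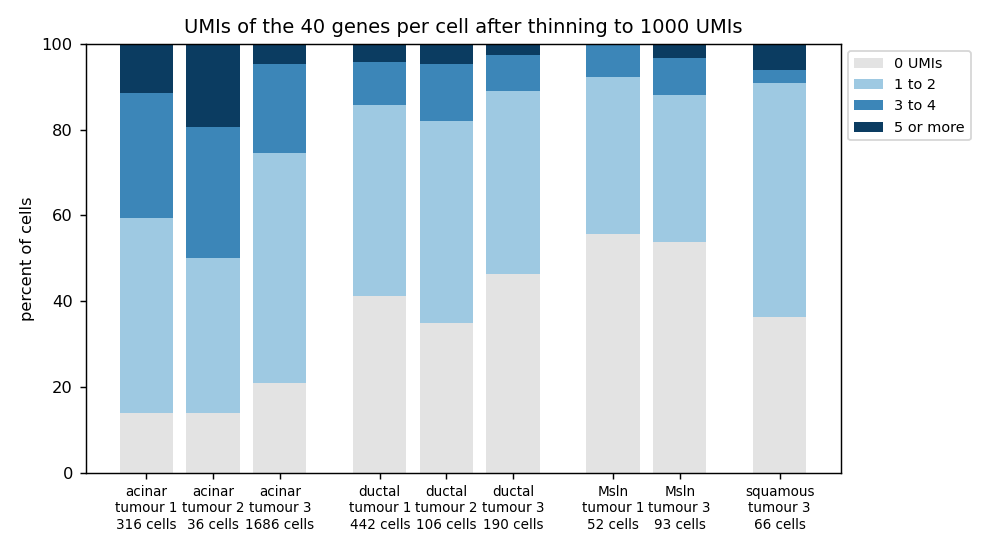
Percent of cells (y axis) with 0, 1 to 2, 3 to 4 and 5 or more UMIs of the 40 genes after thinning to 1000 UMIs, for each gate and tumour with 20 or more cells. The pale part, cells with no such UMI, is smaller in the acinar bars than in the ductal bars of all 3 tumours.

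Within gates the UMIs of each gene were then summed per tumour and all genes were tested in edgeR by quasi-likelihood, blocking on tumour. Of the 40 members 36 passed the filter on low counts, while Cdc45, Dscc1, Blm and Brip1 did not. This filter asks for a minimum level in as many sums as the smallest gate has, whichever gate they belong to. A gene can thus pass it through the acinar sums alone, and a lower value in the other gates is then partly fixed in advance. How many members did so was not counted. In the ductal gate 20 of the 36 were lower than in the acinar gate at an adjusted p under 0.05, 0 were higher and 16 did not pass, against 11.4% of all 7268 genes lower and 13.3% higher. The median log2 difference of the 36 was -0.86, and that of all genes -0.02. At an unadjusted p under 0.05, 26 were lower and 0 higher, against 1242 lower and 1302 higher of all 7268 genes. DESeq2 gave a median of -0.88 but called only Nasp, where 2.09% of all genes were called lower. At an unadjusted p under 0.05 it had 11 members lower, against 445 of all 7268 genes. Cells with at most 10% mitochondrial UMIs gave 12 lower of 32 tested (9.55% of all genes), and sums of cells thinned to 1000 UMIs 4 of 12 tested (10.8% of all genes). The acinar gate of tumour 2, with 36 cells, was below the minimum of 50, so this comparison rests on tumours 1 and 3. With a minimum of 20 cells, which admits tumour 2, 21 of 39 members were lower (11.9% of all genes), but 6 of 39 without tumour 1 (4.9% of all genes) and 6 of 22 without tumour 3 (9.8%). Taken tumour by tumour with the 36 cells included, 26 of the 40 genes were lower in the ductal gate in 3 of 3 tumours. A further 11 were lower in 2, 3 in 1 and 0 in none. The acinar sum of tumour 2 held only 202 UMIs of the set. The share of all genes with such directions was not counted, so how unusual these counts are is not known. A lower sum can mean fewer cells in S phase or less of the RNA per cell, and these cannot be told apart in the sums.

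**Figure D5:**
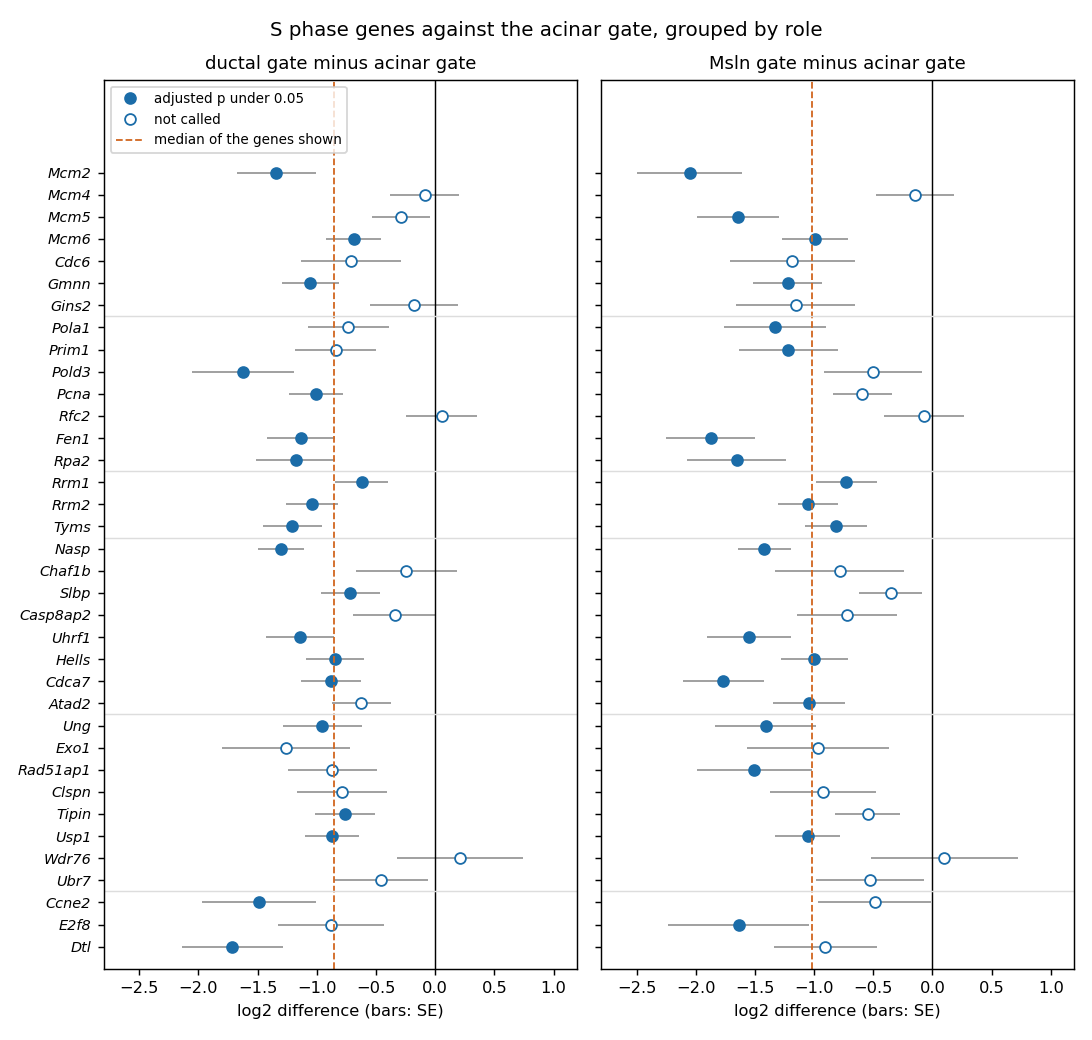
Log2 difference of each tested member between the ductal gate and the acinar gate (left) and the Msln gate and the acinar gate (right), with its standard error, filled where the adjusted p of edgeR was under 0.05, and grouped by role from top to bottom. Both panels use the same acinar sums. The dashed medians lie at -0.86 and -1.02, and 2 genes on the left and 1 on the right lie above 0.

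Of the licensing and helicase genes, 3 of 7 tested were lower in the ductal gate. Mcm2, a subunit of the MCM ring (chromosome 6, 88883474 to 88898780, mm10), stood at 68.3, 58.2 and 42.2 CPM in the acinar gate of tumours 1, 2 and 3 and at 21.1, 24.8 and 22.6 CPM in the ductal gate. In tumour 2 each gate had 4 UMIs of Mcm2, and the acinar sum of that tumour was not in the fit. The log2 difference was -1.34 ± 0.33 (SE, adjusted p = 0.00384). Gmnn, the licensing inhibitor geminin (chromosome 13, 24751845 to 24761923), was at 93.5, 72.7 and 67.6 against 43.4, 49.6 and 35.7 CPM (log2 -1.05 ± 0.24, adjusted p = 0.00199). In tumour 2 Gmnn had 5 UMIs in the acinar and 8 in the ductal gate. Mcm6 fell by 0.69 on the log2 scale (adjusted p = 0.0281), although in tumour 2 it was higher in the ductal gate, at 86.7 against 58.2 CPM, and with that tumour admitted its adjusted p was 0.0947. The other ring subunits did not move alike: Mcm4 had a log2 difference of -0.09 ± 0.29 and Mcm5 of -0.29 ± 0.25. Mcm5 stood at 60.9, 29.1 and 56.2 CPM in the acinar and 41.1, 43.4 and 58.3 CPM in the ductal gate, so the gates overlapped. Cdc6, the loader of the ring, had -0.71 ± 0.42, and Gins2, a GINS subunit, -0.18 ± 0.37. Exons of Gins2 overlap those of Gse1 on the other strand, where reads can be shared if strand was not used in counting.

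Of the fork genes, 4 of 7 tested were lower. The clamp Pcna (chromosome 2, 132249162 to 132253314) stood at 168, 160.0 and 128 CPM in the acinar and 78.6, 111.5 and 69.6 CPM in the ductal gate, a log2 difference of -1.01 ± 0.23 (adjusted p = 0.00190). The largest difference in this role was that of Pold3, an accessory subunit of polymerase delta, at -1.62 ± 0.43 (adjusted p = 0.00621), from 6, 6 and 7 UMIs in the ductal gate of tumours 1, 2 and 3. Fen1, the flap nuclease that trims Okazaki fragments, had 72.7, 29.1 and 56.2 against 36.4, 12.4 and 22.6 CPM (log2 -1.14 ± 0.29, adjusted p = 0.00436), and its exons overlap Tmem258 on the other strand. Rpa2, a subunit of the single-strand binding protein, had -1.18 ± 0.33 (adjusted p = 0.0103). In CPM the ductal gate was the lower in each tumour for these 4 genes, but the counts of tumour 2 are too low to settle the order there. Fen1 had 2 UMIs in each gate of tumour 2, and Rpa2 had 5 in the acinar and 4 in the ductal gate. Polymerase alpha and its primase did not pass the adjusted test, with Pola1 at -0.73 ± 0.34 and Prim1 at -0.84 ± 0.34 (adjusted p = 0.128 and 0.0771). The clamp loader subunit Rfc2 had a log2 difference of 0.05 ± 0.30 and stood at 31.7, 12.4 and 33.9 CPM in the ductal gate, against 28.6, 31.6 and 32.6 CPM in free RNA. It was near free RNA in tumours 1 and 3 and below it, with 2 UMIs, in tumour 2, and its exons overlap Lat2 on the other strand.

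All 3 genes of deoxynucleotide supply were lower in the ductal gate. Rrm2, the subunit of ribonucleotide reductase whose level follows S phase (chromosome 12, 24708241 to 24714146), stood at 117, 116 and 116 CPM in the acinar and 51.6, 43.4 and 67.7 CPM in the ductal gate. The acinar value of tumour 2 rests on 8 UMIs, so the close acinar values are no measure of the spread between tumours. The log2 difference of Rrm2 was -1.04 ± 0.22 (adjusted p = 0.000940). Tyms, thymidylate synthase, had -1.21 ± 0.25 (adjusted p = 0.000593) and was lower in the ductal gate of each tumour. In tumour 2 it had 43.6 against 37.2 CPM, from 3 and 6 UMIs. The large reductase subunit Rrm1 fell by 0.62 (adjusted p = 0.0441). Named pseudogenes exist for Tyms, Pcna and Nasp, so how their reads were split is uncertain.

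Of the chromatin genes, 5 of 8 were lower. Nasp (chromosome 4, 116601052 to 116627941) had the smallest adjusted p of the set: it stood at 341, 407 and 208 CPM in the acinar and 128, 124 and 95.9 CPM in the ductal gate, a log2 difference of -1.30 ± 0.20 (adjusted p = 1.43e-05). It was called in 21 of 21 alternative fits, and in the acinar gate it gave 13.9%, 13.9% and 10.7% of the set's UMIs. Uhrf1, which brings the maintenance methyltransferase to new DNA, had -1.14 ± 0.29, and Cdca7 and Hells, partners in a nucleosome remodelling complex, -0.88 ± 0.25 and -0.84 ± 0.24 (adjusted p = 0.00413, 0.0110 and 0.0127). Cdca7 was at 83.1, 160.0 and 54.3 CPM in the acinar and 44.6, 18.6 and 32.0 CPM in the ductal gate. Slbp, which binds the stem loop of histone mRNAs, fell by 0.72 (adjusted p = 0.0355). In free RNA Slbp was at 71.0, 62.3 and 93.7 CPM, above its level in both gates of the 2 tumours that the call rests on, which were 57.9 and 35.2 CPM in tumour 1 and 71.4 and 47.0 CPM in tumour 3. Atad2, Casp8ap2 and the chromatin assembly factor subunit Chaf1b did not pass, at -0.62, -0.34 and -0.24.

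Of the repair and fork protection genes, 3 of 8 tested were lower. Usp1, which removes ubiquitin from Pcna (chromosome 4, 98923810 to 98935543), had a log2 difference of -0.88 ± 0.23 (adjusted p = 0.00567), but in tumour 2 stood at 86.7 CPM in the ductal and 72.7 CPM in the acinar gate. The uracil glycosylase Ung had -0.95 ± 0.34 and the fork protection factor Tipin -0.76 ± 0.25 (adjusted p = 0.0393 and 0.0280). Exo1, Rad51ap1 and the checkpoint mediator Clspn had -1.26, -0.87 and -0.79 and did not pass. Wdr76, with 9, 3 and 9 UMIs in the ductal gate, had 0.21 ± 0.53, and Ubr7 had -0.46 ± 0.39. Exons of Ubr7 overlap Gm20604 on the other strand, and those of Ccne2 overlap Ints8. Among the control genes, Ccne2, a cyclin of the G1 to S transition, had -1.49 ± 0.48, and Dtl, a receptor of the CRL4 ubiquitin ligase, -1.72 ± 0.43, the largest difference of the set (adjusted p = 0.0237 and 0.00382). Dtl stood at 37.1, 43.6 and 31.0 CPM in the acinar and 14.1, 12.4 and 5.64 CPM in the ductal gate, where it had 12, 2 and 3 UMIs. Ccne2 had 7, 1 and 4 UMIs there. Both genes were too low in the ductal gate to pass the filter on low counts there and passed it through the acinar sums. Their direction was thus partly set by the filter. The repressor E2f8 had -0.88 ± 0.45 and did not pass.

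In the Msln gate, compared in tumours 1 and 3, 20 of 36 members were lower than in the acinar gate and 0 higher, against 12.1% of all genes lower and 15.7% higher. The median log2 difference was -1.02, against -0.01 over all genes. Without TMM factors the median of all genes moved to 0.13 and that of the members to -0.91. At an unadjusted p under 0.05, 25 were lower and 0 higher, against 1285 lower and 1489 higher of all 7268 genes. DESeq2 called Nasp and Mcm2, where 2.34% of all genes were called lower. At an unadjusted p under 0.05 it had 12 members lower, against 524 of all 7268 genes. Cells with at most 10% mitochondrial UMIs gave 11 lower of 32 tested (8.65% of all genes), and thinned sums 3 of 12 (6.92%). Sums of 20 or more cells gave 8 of 39 without tumour 1 (5.25%) and 5 of 22 without tumour 3 (7.1%). The comparison shares its acinar sums with that of the ductal gate, so the calls in both are no independent evidence. Nasp had -1.42 ± 0.23, close to its -1.30 in the ductal gate. Mcm2 had -2.05 ± 0.45, from 0 UMIs in tumour 1 and 10 in tumour 3. Fen1 had -1.87 ± 0.38, from 1 and 13 UMIs, and Cdca7 -1.77 ± 0.34, from 4 and 11 UMIs. Counts this low make the size of each difference imprecise. Mcm5, which had -0.29 in the ductal gate, had -1.64 ± 0.35 here, at 12.5 and 22.8 CPM. Pcna had -0.59 ± 0.25 and did not pass (adjusted p = 0.0783): it stood at 56.2 CPM in tumour 1 but at 121 CPM in tumour 3, where the acinar gate had 128. The 5 largest of the 93 cells gave 26.5% of the UMIs of that sum, and their part in the level of Pcna was not tested.

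Of the others, Pola1, Prim1, Atad2, Rad51ap1 and E2f8 were lower in the Msln gate, with log2 differences of -1.33, -1.22, -1.04, -1.51 and -1.64. Pold3, Slbp, Tipin, Ccne2 and Dtl had -0.50, -0.35, -0.55, -0.49 and -0.91 and did not pass. Whether the Msln and ductal gates differ was tested directly, which called 1 member lower and 0 higher, against 1.91% of all genes lower and 3.25% higher. This was Mcm5, with 12.5 and 22.8 CPM in the Msln gate and 41.1, 43.4 and 58.3 CPM in the ductal gate (log2 -1.36 ± 0.39, adjusted p = 0.0427). It was called in 6 of 16 alternative fits. The remaining 35 did not pass, among them Pold3 at 1.12 ± 0.58 (adjusted p = 0.328) and Dtl at 0.81 ± 0.60. The median of the 36 was -0.17.

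The squamous gate had enough cells to sum in tumour 3 alone, so it entered no test. Its 66 cells held the set at 1518 CPM (1366 to 1681), against 1272 CPM in the ductal and 1936 CPM in the acinar gate of that tumour. At 1000 UMIs per cell they had a mean of 1.26 UMIs of the set, but 9.09% of them had 3 or more, below the 11.1% of the ductal gate. Slbp stood out at 224 CPM, but 38 of its 54 UMIs came from 1 cell and 12 of the 66 cells had any. Pcna was at 133, Nasp at 149 and Rrm2 at 107.8 CPM there, against 128, 208 and 116 CPM in the acinar and 69.6, 95.9 and 67.7 CPM in the ductal gate. Of the 26 UMIs of Rrm2, 14 came from 1 cell and 8 of the 66 cells had any, while 21 had a UMI of Pcna. Fen1 and Rpa2 were low, with 3 and 2 UMIs.

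The rest of the replication machinery was read from a separate list of 41 genes. Of the 31 tested, 12 were lower in the ductal gate and 0 higher, with a median of -0.69, where 11.4% of all genes were lower. They included Pold2 of polymerase delta (-1.48 ± 0.29), the licensing factor Cdt1 (-1.46 ± 0.33) and Pola2 of polymerase alpha (-1.44 ± 0.26). In the Msln gate 13 were lower and 1 was higher, where 12.1% of all genes were lower and 15.7% higher. The same shares of all genes apply to the lists that follow. The latter was Pold4, the smallest subunit of polymerase delta, at 99.9 and 44.0 CPM against 16.3 and 15.0 CPM in the acinar gate (log2 1.74 ± 0.35, adjusted p = 0.000483), while Pold2 had -2.11 ± 0.38. Of 10 other nucleotide genes 3 were lower in the ductal and 7 in the Msln gate, led in the ductal gate by the dUTPase gene Dut at 96.2, 80.5 and 111 CPM against 291 and 237 CPM in the acinar gate of tumours 1 and 3 (-1.41 ± 0.19). Of 8 other chromatin genes 2 and 3 were lower, among them the maintenance methyltransferase Dnmt1 (-1.06 ± 0.26 in the ductal gate).

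The control genes of G1 and S phase did not all go one way. Of 16 tested, 4 were lower in the ductal gate, among them the S phase cyclin Ccna2 (-1.24 ± 0.25) and the phosphatase Cdc25a (-0.68 ± 0.24), and 1 was higher. That was Ccnd2, a D-type cyclin that acts in G1, at 134, 118 and 167 CPM in the ductal gate against 14.8 and 16.0 CPM in the acinar gate (log2 3.22 ± 0.25, adjusted p = 1.79e-10). In the Msln gate 5 were lower, while Ccnd2 (3.49 ± 0.25) and Ccnd1 (1.16 ± 0.17) were higher. Ccnd1 stood at 362 and 404 CPM there, against 172 and 153 CPM in the acinar gate.

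Genes of G2 and mitosis were lower in both gates more often than higher. Of 45 tested, 24 were lower in the ductal gate and 0 higher, with a median of -0.75, and 26 were lower in the Msln gate and 0 higher, against 11.4% and 12.1% of all genes lower. Top2a, the topoisomerase that untangles sister chromatids, was at 76.3, 124 and 35.7 CPM in the ductal gate against 242 and 166 CPM in the acinar gate (-1.92 ± 0.22). Their summed level was 5521, 7419 and 4369 CPM in the acinar and 3480, 3141 and 2852 CPM in the ductal gate.

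Cell by cell, at 1000 UMIs each, cells with 5 or more UMIs of the 40 genes also had more UMIs of the G2 and mitosis genes than cells with 0. The means were 2.83, 3.32 and 2.76 in cells with 0 and 4.99, 5.91 and 5.38 in cells with 5 or more, in tumours 1, 2 and 3. Within gates the mean went from 3.61 to 5.59 in the acinar gate of tumour 1, from 3.50 to 4.51 in that of tumour 3, and from 2.68 to 4.21, 2.78 to 3.58 and 1.48 to 4.38 in the ductal gate of tumours 1, 2 and 3, between cells with 0 and with 3 or more. The 36 acinar gate cells of tumour 2 had 8.20 and 8.28. These are means over cells that share a library and are given as a description.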

How the data were processed

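Single cells sorted for EpCAM were profiled from 3 tumours, 1 library each. The authors deposited raw UMI counts, 1 whole number for each gene and barcode, made with Cell Ranger 3.0.2 per the file headers (mm10, Cell Ranger 3 and Seurat 3.1 per the submitters' processing notes). The tables list 31053 genes and 6794880 barcodes, so cells had not been called (gene annotation: not given in the sources used here). Gene coordinates are those of GENCODE M21 (mm10), and promoter sequences those of RefSeq (GRCm38.p6).

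Cells had 1000 or more UMIs, 500 or more genes, at most 20% mitochondrial UMIs and 60% or more of the barcode's UMIs over the 3 libraries in this one. The libraries held 11502184, 9737397 and 16521484 UMIs. A cell passed a gate with 2 or more UMIs of its genes and a share of its UMIs at or above that of all kept cells, averaged over the 3 tumours, and belonged to it if it passed no other. Doublets were not called; cells of more than 1 gate were left out, and dropping the 5% of cells with the most UMIs was an alternative. UMIs were summed per gate and tumour where 50 or more cells allowed, giving 7 sums, and scaled to a total of 1000000 (CPM) for display. edgeR 4.0.16 (R 4.3.3) fitted them with filterByExpr, TMM factors and tumour as a block, leaving 2 residual degrees of freedom (common BCV 0.122, 7268 genes), and Benjamini-Hochberg adjustment over all of them at 0.05. DESeq2 1.42.0 was an alternative. The test was tried on simulated data, with 200 of 7268 genes changed in the ductal gate. It called 76% of those changed 2-fold and 99% of those changed 4-fold, with 8 false calls. The simulation gave every gene the common BCV and held no difference between tumours. It therefore does not show how the test performs on the real sums.

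Gates were paired by tumour because each tumour is from 1 animal. Deviations from gate means correlated at 0.0454, 0.00522 and 0.157 between the acinar and ductal gates of tumours 1, 2 and 3. Between gates of different tumours they ran from -0.122 to 0.0485, so only the value of tumour 3 lay above that range. Members and lists were chosen with earlier results of these data known, among them that S phase genes were lower in ductal than in acinar cells, so that direction is no independent support. All 40 members are accounted for. Of the other lists, genes were named where they passed the test with the largest differences among those with a mean of 20 CPM or more, up to 4 per list. P-values measure the spread between these sums. Proteins are not shown.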

Additional observations from a re-analysis of the deposited data

How the results depend on the processing

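The number of members lower in the ductal than in the acinar gate ran from 1 to 26 over 21 alternatives and in the Msln gate from 2 to 23 over 17, while the medians stayed between -1.13 and -0.74 and between -1.47 and -0.91. Against the 20 lower in each, DESeq2 called 1 and 2, at most 10% mitochondrial UMIs gave 12 and 11, and thinning each cell to 1000 UMIs before summing gave 4 and 3, where 12 members were tested. Over the alternatives with a test, all genes called lower in the ductal gate ran from 152 of 7268 (DESeq2) to 1198 of 7340 (gates set on thinned cells). In the Msln gate they ran from 170 of 7268 (DESeq2) to 1047 of 16023 (no filter on low counts). Without the tumour as a block, 15 and 14 members were lower, against 498 and 538 of all 7268 genes. In that fit 0 were lower between the Msln and ductal gates, against 55 of all genes. Without tumour 1 or 3 no residual degrees of freedom remained, so no test was made. With 20 cells per sum, chosen after the data were seen like the other combinations below, leaving out 1 tumour gave from 6 to 20 and from 5 to 21, with 6 and 8 without tumour 1 and 6 and 5 without tumour 3, where the lone Msln sum was assumed to vary like the other gates. There, without the 5% of cells with the most UMIs, 10 were lower in the Msln gate, against 374 of all 4533 genes. Without tumour 2, 798 of all 7047 genes were lower in the ductal and 890 in the Msln gate. Between the Msln and ductal gates 0 members were called without TMM factors, with DESeq2, without the home-library filter or at 10% mitochondrial UMIs. The same held without the block and with thinned sums. At 20 cells per sum it held without cells over 5% ribosomal RNA locus UMIs, without the block or without the largest cells. Mcm5 was called in 6 and not called in 10 of the 17 alternatives, and was not tested in the remaining fit. Comparisons of the Msln gate could not be made with gates set on thinned cells, with 3 gate UMIs, without ribosomal RNA cells or without the largest cells at 50 cells per sum.

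Among uncalled members the sign changed in these fits. For the ductal gate, Mcm4 had 0.0082 without TMM factors and 0.079 at 10% mitochondrial UMIs, where Casp8ap2 had 0.16. Rfc2 had -0.20 without the home-library filter, -0.038 with thinned gates, -0.16 at 2 times the gate share, -0.019 with 3 gate UMIs, -0.054 without the largest cells, -0.15 without the block, and at 20 cells -0.073 without the block and -0.14 without tumour 1, where Chaf1b had 0.15. Ubr7 had 0.022 without the block, Wdr76 -0.33 at 20 cells without ribosomal RNA cells, and Mcm5 0.0029 with thinned sums. For the Msln gate, Mcm4 and Rfc2 had 0.016 and 0.085 without TMM factors, Mcm4 and Dtl 0.12 and 0.16 at 10% mitochondrial UMIs, Wdr76 -0.50 at 20 cells without tumour 1, Ubr7 0.016 without ribosomal RNA cells and Rfc2 0.013 without the block. The cause was not tested.

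The set's level in tumour 1 was 1672 CPM without the home-library filter. In tumours 1, 2 and 3 it was 1667, 1742 and 1795 CPM at 10% mitochondrial UMIs, 1693, 2259 and 1859 CPM without ribosomal RNA cells, and 1504, 1564 and 1597 CPM without the largest cells. Without ribosomal RNA cells, 90.7% and 82.9% of acinar gate cells of tumours 1 and 3 had a member UMI.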
